A study of Mus musculus with 12 samples.

Results

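Mitochondrial ribosomal protein genes are the nuclear genes whose symbols begin with Mrpl (large subunit) or Mrps (small subunit) followed by a digit. The expression arrays carried 72 of them among 18097 gene symbols, 44 named Mrpl and 28 named Mrps, and each was read by its brightest probe, judged by the mean signal of the 12 arrays. Their values were compared in the hippocampus and the cortex of male 3×TgAD mice, a transgenic line that carries mutant genes tied to Alzheimer's disease and tauopathy. From 14 months of age the mice drank water with amitriptyline (AMI), a tricyclic antidepressant, at 100 µg per g of body weight for 4 months, or water alone (vehicle), and tissue was taken at 18 months. Both treatments also received bromodeoxyuridine, a label of dividing cells. Each of the 4 groups had 3 arrays, all mice carried the transgenes and no wild-type mice were in the array data. Nothing in the labels says which arrays came from the same animal, so the p-values measure the spread between these arrays.

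The mitochondrial ribosome sits inside the organelle and translates the few messenger RNAs that mitochondrial DNA encodes, all of them for subunits of the respiratory chain and the ATP synthase. Its proteins are made in the cytosol from nuclear genes and imported, as are most subunits of the respiratory chain. Many have a direct counterpart in the bacterial ribosome, and others were added during the evolution of mitochondria. By structure 46 members belong to the large and 26 to the small subunit, since the proteins of Mrps30 and Mrps18a lie in the large subunit despite their names. A bacterial counterpart is known for 48 members, and 24 are found only in mitochondria.

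Each value is the hybridization to a DNA probe of 50 bases. The probes of 7 members that the results turn on are printed 5′ to 3′ in lower case, as the array's annotation gives them, with its chromosome and position. The files do not name the build of these positions.
Mrpl52, chr14:55048508-55048557: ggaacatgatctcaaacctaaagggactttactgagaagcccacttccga
Mrpl20, chr4:155182879-155182928: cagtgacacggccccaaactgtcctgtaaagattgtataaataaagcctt
Mrps18c, chr5:101233433-101233482: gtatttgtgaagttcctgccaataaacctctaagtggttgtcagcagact
Mrpl9, chr3:94251951-94252000: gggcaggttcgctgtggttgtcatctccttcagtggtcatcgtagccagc
Mrpl28, chr17:26263379-26263428: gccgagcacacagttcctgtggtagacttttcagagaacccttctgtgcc
Mrps12, chr7:29524829-29524878: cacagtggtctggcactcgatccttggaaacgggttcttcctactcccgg
Mrpl1, with no position in the annotation: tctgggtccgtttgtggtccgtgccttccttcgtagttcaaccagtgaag
The first 4 had the largest differences between the tissues in either direction, Mrpl28 had the smallest p of the hippocampal treatment comparison, Mrpl1 that of the test of a different response in the tissues, and Mrps12 the lowest difference after AMI in the cortex.

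Nearly all members gave a signal above background in both tissues. A probe counts as detected on an array when the scanner software gave it a detection p of 0.05 or less, and it was tested in a tissue when 3 or more of the 6 arrays detected it. Of the 72 members, 64 were detected on all 12 arrays and tested in both tissues, and Mrps27 was tested in the hippocampus only, where 6 of 6 arrays detected it against 2 of 6 in the cortex. The other 7 were not tested: Mrpl15, Mrpl19, Mrpl21, Mrpl32, Mrpl45 and Mrps14 were detected on no array, and Mrpl39 on 2 hippocampal arrays. The 6 detected on no array had the dimmest probes of the members, with signals between 45.8 for Mrpl19 and 83.8 for Mrpl15. Per array 49.0% to 51.7% of all 25697 probes were detected. The brightest probes were those of Mrps33, Mrps24, Mrps34, Mrpl28, Mrps17 and Mrpl23, with Mrps33 between 1292 and 5637 over the 12 arrays and Mrpl23 between 590.4 and 2939. Mrps36 was not among the symbols of the arrays. Brightness depends on the probe as well as on the transcript, so levels are not compared between genes. All further values are log2 signals that were centred and scaled within each array (z-scaled), where 0 is the array's mean over all probes.

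Across the arrays the members' mean was higher in the hippocampal than in the cortical arrays, and a single array stood apart. Each member's deviation from its own mean over 12 arrays was averaged over the 64 members tested in both tissues. This mean was 0.14, 0.19 and 0.16 in the hippocampal vehicle arrays and 0.06, 0.15 and 0.13 in the hippocampal AMI arrays. In the cortex it was -0.01, -0.04 and -0.44 for vehicle and -0.13, -0.01 and -0.21 for AMI. All hippocampal arrays were above all cortical arrays (with median centring in place of z-scaling they overlapped), and cortical vehicle replicate 3 was the lowest of the 12. The 2 treatments overlapped in both tissues, but each hippocampal AMI array lay below the vehicle array of the same number (with median centring only replicate 1 did), and with quantile normalization (AMI up to 0.122, vehicle from 0.146) or neqc background correction (AMI up to 0.134, vehicle from 0.158) the hippocampal treatments did not overlap. On that array 53 of 64 members had the lowest value of the 6 cortical arrays, against 24.0% of all genes. The median distance from the median of the other 5 cortical arrays was -0.31, from -1.18 for Mrps21 to 0.21 for Mrps9. The same array was the lowest for 73.2% of 56 genes of cytosolic ribosomal proteins and for 70.6% of 68 nuclear genes of oxidative phosphorylation. Its 6 tested mitochondrial ribosome subunits with other symbols averaged -0.28 (other 5 cortical arrays -0.11 to 0.05), and its 8 mitochondrial translation factors -0.15 (-0.11 to 0.04). Its 8 tested endothelial markers averaged 0.62, outside the range of -0.23 to 0.24 in the other 5 cortical arrays, and its 10 oligodendrocyte markers averaged 0.38, outside the range of -0.15 to 0.21. Its 3 hippocampal markers were just above the others (-0.51 against -0.79 to -0.52). Below the others were its 10 microglial markers (-0.40 against -0.37 to -0.15) and 6 cortical neuron markers (0.10 against 0.13 to 0.32). The part of these markers in the low member values was not tested. In bulk tissue, fewer cells of a type and less RNA per cell cannot be told apart.

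**Figure D1:**
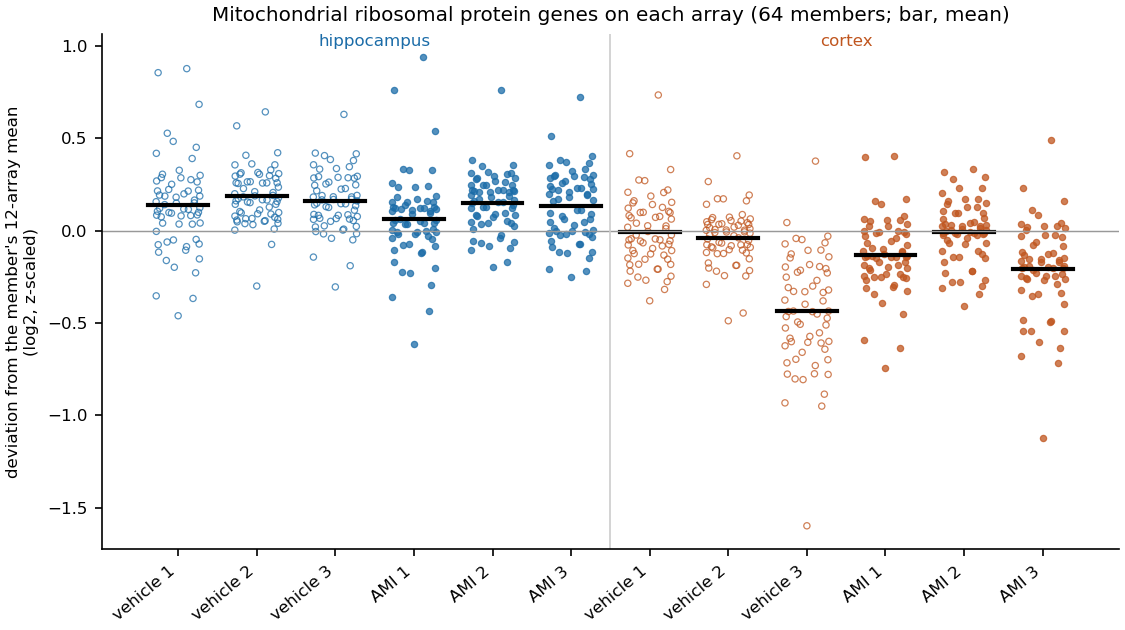
Deviation of 64 mitochondrial ribosomal protein genes from their own mean over 12 arrays (y axis, log2 of the z-scaled signal), by array (x axis); each point is a member, open points are vehicle, filled points AMI, and bars are means over members. The means lie between 0.06 and 0.19 in the hippocampus and between -0.21 and -0.01 in 5 cortical arrays, and at -0.44 in cortical vehicle replicate 3.

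In the hippocampus the comparison asks whether AMI moved the transcripts of the mitochondrial ribosome. No member passed: limma with Benjamini-Hochberg adjustment over 13163 probes called 0 of 65 members and 0% of 9933 genes at an adjusted p under 0.05. The smallest adjusted p of a member was 0.9996. Of the 65 members, 45 lay below and 20 above 0, with a median AMI minus vehicle difference of -0.05, where the median of all genes was 0.01. Centring each array on its median in place of z-scaling put 44 members above 0, with a median of 0.04 against 0.07 for all genes, so the side of 0 depended on the scaling while the members' median stayed below that of all genes under both. At an unadjusted p under 0.05 there was 1 member, Mrpl28, against 2.47% of all genes. In 9 of 65 members (13.8%) all AMI arrays were below all vehicle arrays, against 3.6% of all genes, and in 2 members (3.08%) all were above, against 4.41%. This count depended on the scaling. With median centring in place of z-scaling 0 members lay apart on either side. With quantile normalization or neqc background correction 11 lay apart below and 4 above. The shares of all genes under these scalings are not given here.

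Mrpl28, the counterpart of bacterial L28 in the large subunit, read 3.73, 3.72 and 3.88 in the vehicle arrays and 3.63, 3.52 and 3.51 in the AMI arrays of the hippocampus. The lowest vehicle value lay above the highest AMI value. Its difference was -0.22 (SE 0.09), with an unadjusted limma p of 0.044 and an adjusted p of 0.9996. In the cortex it read 3.65, 3.70 and 3.42 with vehicle and 3.56, 3.52 and 3.67 with AMI, groups that overlapped and differed by -0.01 (SE 0.11). Mrpl48, a large-subunit protein found only in mitochondria, had the lowest hippocampal difference at -0.30 (SE 0.16). Its vehicle values were 2.21, 2.45 and 2.41 and its AMI values 1.71, 2.38 and 2.07, which overlap. The other 2 detected probes of Mrpl48 gave -0.26 and -0.14 in the same comparison, also below 0.

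Mrps12 encodes the counterpart of bacterial S12, a protein of the decoding centre. In the hippocampus it read 3.40, 3.66 and 3.20 with vehicle and 2.65, 3.39 and 3.38 with AMI. The groups overlapped, the SD of the AMI arrays was 0.42, and the difference was -0.28 (SE 0.21). Next in order were Mrpl13 at -0.20 (SE 0.13), Mrpl36 at -0.20 (SE 0.11) and Mrps17 at -0.20 (SE 0.14), each with overlapping groups. Mrpl13 had a second detected probe at 0.02. Besides Mrpl28, the members whose AMI arrays all lay below vehicle were Mrpl1, Mrps9, Mrpl38, Mrpl46, Mrpl49, Mrpl12, Mrpl17 and Mrps31, with differences between -0.18 for Mrpl1 and -0.09 for Mrps31. These 9 were named because their groups do not overlap, after the values were seen. Mrpl12, the counterpart of the bacterial L7/L12 stalk that recruits translation factors, read 3.32, 3.32 and 3.37 with vehicle and 3.31, 3.12 and 3.27 with AMI.

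On the other side of 0 were Mrpl22 at 0.20 (SE 0.11), Mrpl30 at 0.18 (SE 0.09), Mrps15 at 0.16 (SE 0.09), Mrps10 at 0.14 (SE 0.11), Mrps35 at 0.14 (SE 0.17) and Mrpl4 at 0.11 (SE 0.10). Of these, the proteins of Mrpl22 and Mrpl4 line the exit tunnel of the large subunit in the bacterial ribosome. Mrpl30 and Mrps15 were the 2 members with all AMI arrays above vehicle. Mrpl30 read 2.30, 2.33 and 2.24 with vehicle and 2.48, 2.40 and 2.51 with AMI. Mrps15 read 0.12, 0.16 and 0.05 with vehicle and 0.23, 0.25 and 0.33 with AMI. In both genes the groups were apart, and neither passed the test. A second detected probe of Mrps10 gave -0.04, on the other side of 0.

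The intervals of the differences bound what these arrays could hide. For all 65 members the 95% interval of the hippocampal difference stayed within a log2 difference of 1 in either direction, and for 61 within 0.5. Same-numbered AMI and vehicle arrays of the hippocampus deviated together, but AMI replicate 3 did so nearly as much with vehicle replicate 2. With the replicate number as a block 5 members had an unadjusted limma p under 0.05, against 8.61% of all genes. These were Mrpl1, Mrpl13, Mrpl28 and Mrpl48 below 0 and Mrpl22 above. At an adjusted p under 0.05 there were 0 members, with a smallest adjusted p of 0.591. Beside these values stand marker lists that differ between the same arrays. All 10 oligodendrocyte markers tested lay below 0 after AMI, with a median of -0.40. Of these, 4 had an unadjusted limma p under 0.05, against 2.47% of all genes, and none passed after adjustment. Hippocampal vehicle replicate 3 carried more of the choroid plexus markers, with a mean deviation of 2.05 over 6 genes, where the AMI arrays lay between -0.76 and -0.41 and the lowest vehicle array at -0.51. All 6 of these genes lay below 0 after AMI, and none passed. Without that array the members' median difference was -0.05. The part of the oligodendrocyte and choroid plexus markers in the member values was not tested.

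**Figure D2:**
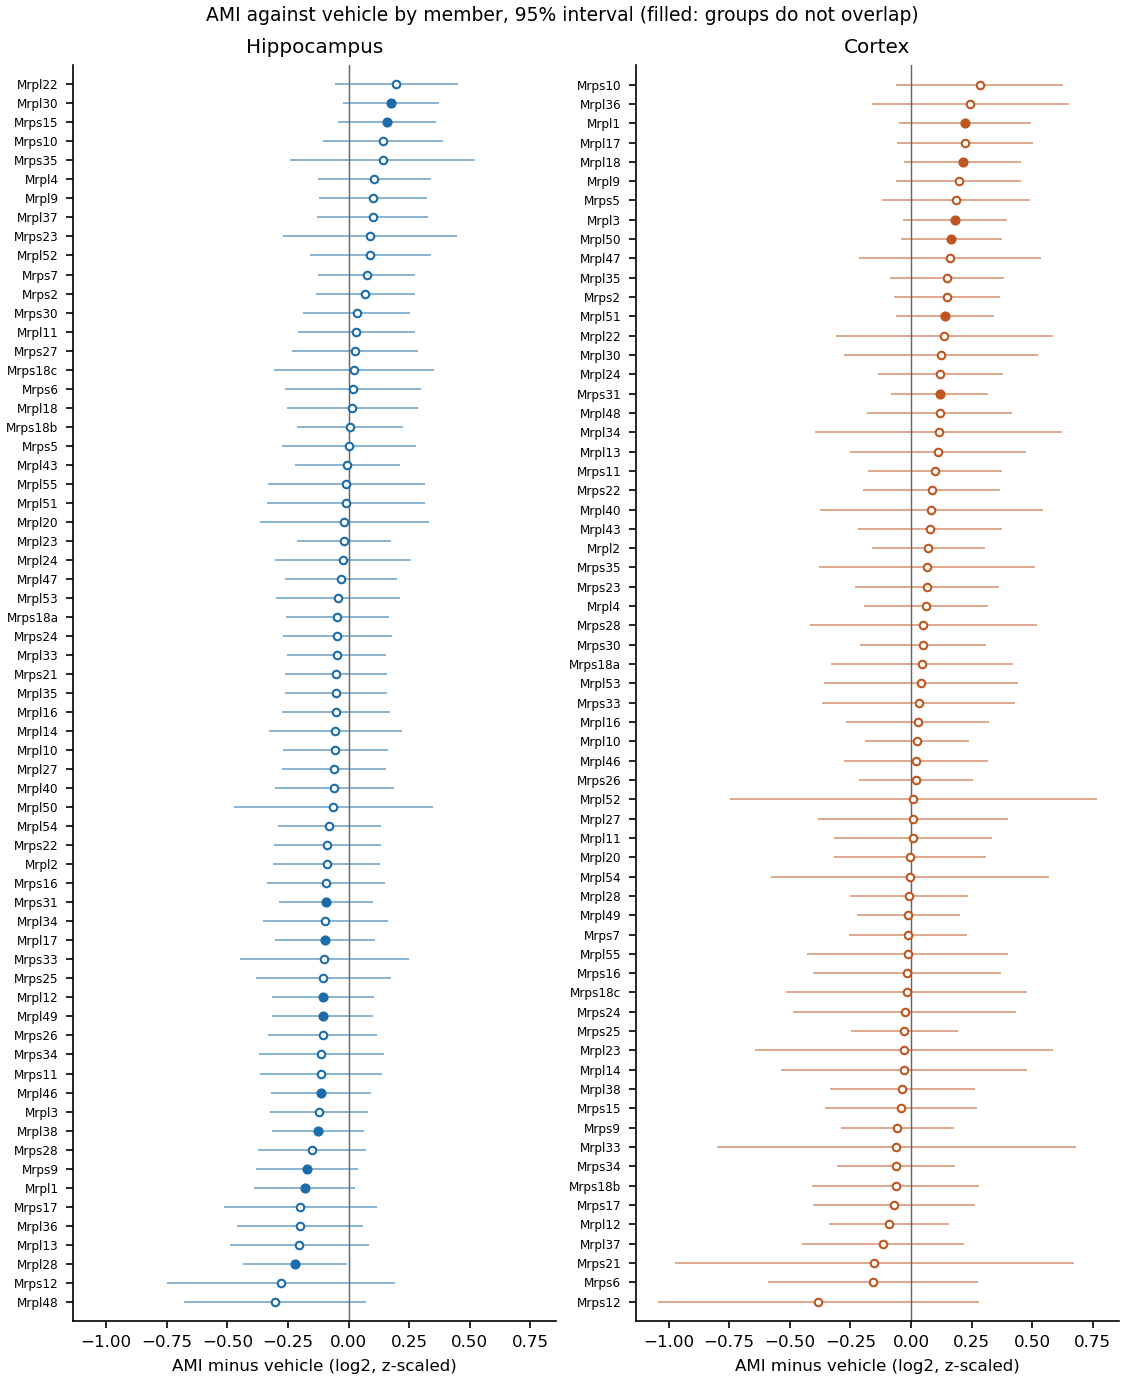
AMI minus vehicle difference of each tested member (x axis, log2 of the z-scaled signal) in the hippocampus (65 members, left) and the cortex (64 members, right), with 95% intervals; filled points mark members whose 3 AMI and 3 vehicle arrays do not overlap. Of the hippocampal intervals only that of Mrpl28 leaves out 0, and no cortical interval does.

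In the cortex the same question was asked of 64 members. Again none passed: 0 of 64 members and 0% of 9798 genes had an adjusted p under 0.05, and the smallest adjusted p of a member was 0.789. At an unadjusted p under 0.05 limma found 0 members, against 5.3% of all genes. The median difference was 0.04 (all genes 0.01), with 40 members above and 24 below 0. In 6 members (9.38%) the lowest AMI array exceeded the highest vehicle array, against 6.66% of all genes, and in 0 members all lay below, against 4.37%. This direction depended on single arrays. Without cortical vehicle replicate 3 the median was -0.08 with 43 of 64 members below 0, and 9 members had an unadjusted p under 0.05 (8 below 0), against 13.8% of all genes and with 0 after adjustment. Without cortical AMI replicate 2 the median was -0.01.

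The highest cortical differences were those of Mrps10 at 0.28 (SE 0.15), Mrpl36 at 0.24 (SE 0.18), Mrpl1 at 0.22 (SE 0.12), Mrpl17 at 0.22 (SE 0.12), Mrpl18 at 0.21 (SE 0.11) and Mrpl9 at 0.20 (SE 0.11). All of them have bacterial counterparts, as do 48 of all 72 members and, of the lowest cortical differences named below, all but that of Mrpl37. Mrps10 read 1.01, 1.21 and 0.88 with vehicle and 1.38, 1.55 and 1.02 with AMI, which overlap. Its second detected probe gave 0.07 in the cortex. Mrpl1, whose bacterial counterpart forms the mobile stalk at the exit site for transfer RNA, read 0.80, 0.84 and 0.77 with vehicle and 0.97, 1.25 and 0.85 with AMI. The groups were apart by little, with the third AMI array just above the second vehicle array. Mrpl18, Mrpl3, Mrpl50, Mrpl51 and Mrps31 were the other members with all AMI arrays above vehicle.

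At the low end was Mrps12, at -0.38 (SE 0.29). Its cortical vehicle values were 3.82, 2.97 and 2.49 and its AMI values 2.50, 2.81 and 2.83. A single vehicle array was far above the rest and the groups overlapped, with an SD of 0.68 among the vehicle arrays. Mrps6 at -0.16 (SE 0.19), Mrps21 at -0.15 (SE 0.36), Mrpl37 at -0.12 (SE 0.15), Mrpl12 at -0.09 (SE 0.11) and Mrps17 at -0.07 (SE 0.15) followed. Mrps21, counterpart of bacterial S21, read 2.82, 2.67 and 1.45 with vehicle and 2.16, 2.63 and 1.69 with AMI, the widest spread of a member in the cortex. A second probe of Mrpl37 gave 0.19, on the other side of 0.

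The cortical values were less precise than the hippocampal ones. The median SD of a member within a group was 0.19 in the cortex and 0.10 in the hippocampus, while over all genes it was 0.14 in both. Accordingly 63 of 64 cortical intervals stayed within a log2 difference of 1, all but Mrps12, and 45 within 0.5. In the cortex the 5 striatal markers tested lay between 0.84 and 0.94 in the vehicle arrays and between 0.45 and 0.59 in the AMI arrays. All 5 markers lay below 0 in the difference, with a median of -0.32. Of these markers 2 had an unadjusted limma p under 0.05, against 5.3% of all genes. Their part in the member values was not tested.

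Whether a member responded differently in the 2 tissues was tested as the interaction, the hippocampal minus the cortical AMI difference. None passed, with 0 of 64 members and 0% of 9464 genes at an adjusted p under 0.05 and a smallest adjusted p of 0.9999. Unadjusted, 2 members had a p under 0.05 (3.13%), against 3.11% of all genes, so their number was at the background. They were Mrpl1 at -0.40 (SE 0.15) and Mrpl3 at -0.30 (SE 0.12), with unadjusted limma p of 0.018 and 0.025. Next were Mrpl17 at -0.32 (SE 0.15) and Mrpl36 at -0.44 (SE 0.23), with 0.057 and 0.071. In the hippocampus Mrpl1 read 1.33, 1.39 and 1.30 with vehicle and 1.24, 1.17 and 1.07 with AMI, so that its AMI arrays all lay below vehicle there and all above vehicle in the cortex. Mrps31 had the same pattern, with an interaction of -0.21 (SE 0.11). How many of all genes had this pattern was not computed. The protein of Mrpl3 corresponds to bacterial L3, close to the peptidyl transferase centre. Mrpl3 read 2.63, 2.59 and 2.52 with vehicle and 2.42, 2.52 and 2.43 with AMI in the hippocampus, and 2.17, 2.35 and 2.32 against 2.50, 2.44 and 2.45 in the cortex. A second Mrpl3 probe gave 0.02 in the hippocampus, 0.45 in the cortex and an interaction of -0.43. For Mrpl37, Mrpl49, Mrps26 and Mrps31 the probes gave interactions on both sides of 0, at 0.22 and -0.21 for Mrpl37 and at -0.13 and 0.12 for Mrps26.

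Over the 64 members the median interaction was -0.08, with 46 below 0, and 0.04 with 27 below 0 when cortical vehicle replicate 3 was left out. The 2 tissues gave differences on opposite sides of 0 in 33 members, above 0 in both tissues in 13 and below 0 in both in 18. Large-subunit members had a median of -0.05 in the hippocampus (9 of 40 above 0) and 0.06 in the cortex (29 of 40 above 0). Small-subunit members had -0.05 in the hippocampus (11 of 25 above 0) and -0.01 in the cortex (11 of 24 above 0). Without cortical vehicle replicate 3 the cortical medians were -0.07 for the large and -0.13 for the small subunit.

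**Figure D3:**
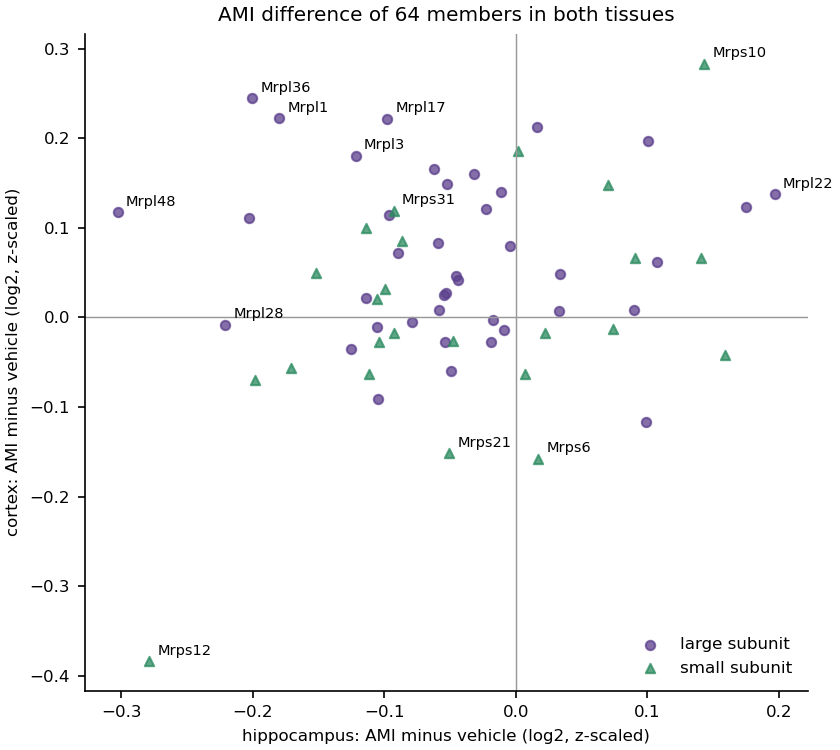
AMI minus vehicle difference of 64 members in the hippocampus (x axis) and the cortex (y axis), both in log2 of the z-scaled signal; circles are large-subunit and triangles small-subunit members. The lines at 0 part 33 members with opposite sides from 13 above and 18 below 0 in both tissues, and Mrps12 lies apart at -0.28 and -0.38.

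The genes that serve the mitochondrial ribosome were looked at through 5 lists, none of which held a called gene in either treatment comparison, with 0 members of any list at an adjusted p under 0.05. For translation factors (8 tested) the medians were 0.02 (hippocampus) and 0.04 (cortex), and the largest differences were those of the release factor gene Mtrf1 at -0.15 and of Mtrf1l at 0.26. Aminoacyl-tRNA synthetases of mitochondria (16 tested) had medians of -0.04 and -0.07, with 14 of 16 below 0 in the cortex, and Lars2, the leucyl-tRNA synthetase, was largest in both tissues at -0.22 and -0.23. Assembly and rRNA modification factors had medians of 0.06 (15 tested) and 0.02 (13 tested), led by Mterfd1, which is needed to assemble the ribosome, at 0.20 and 0.36. Further subunits with other symbols (6 tested) had medians of -0.02 and 0.04, led by Mrp63 at 0.15 and 0.12. In the list for transcription and care of mitochondrial DNA and RNA (10 tested) the medians were 0.05 and 0.07, and the largest differences belonged to Peo1, the mitochondrial DNA helicase, at 0.26 in the hippocampus and to Tfam, which packages mitochondrial DNA, at 0.20 in the cortex. For comparison, the medians of the cytosolic ribosomal protein genes were -0.09 and -0.07 and those of the oxidative phosphorylation genes -0.05 and -0.02.

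The tissues, in contrast, differed for most members. Averaged over both treatments, 34 of 64 members (53.1%) were higher in the hippocampus at an adjusted p under 0.05, against 23.8% of all genes, and 2 (3.13%) were lower, against 18.9% of all genes. The median hippocampus minus cortex difference was 0.30 for the members and 0.02 for all genes, with 54 of 64 members above 0. In 21 members (32.8%) all 6 hippocampal arrays lay above all 6 cortical arrays, against 13.2% of all genes, and in 1 (1.56%) all lay below, against 9.59%. The hippocampal and cortical arrays were exported as separate tables by different scanner software, and the brightest probe reached 35958 to 53324 on the hippocampal and 24573 to 27400 on the cortical arrays. Tissue and table cannot be told apart, and these differences are given with that limit. Centring on the median, which moved the median of all genes to 0.23, gave 48 members higher and 1 lower (all genes 35.9% and 4.48%). The members' median was then 0.34 above that of all genes. Under this scaling 11 members had no overlap, all higher in the hippocampus. The share of all genes without overlap under it is not given here, so that count has no background.

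Mrpl52, a large-subunit protein found only in mitochondria, had the largest difference at 1.52 (SE 0.20, adjusted p = 5.7e-05), which is 2.87-fold. It read 2.30, 2.07 and 2.05 in hippocampal vehicle arrays and 2.36, 2.18 and 2.15 in hippocampal AMI arrays, against 1.17, 0.98 and -0.17 and 0.68, 1.02 and 0.30 in the cortex. Every hippocampal array lay above every cortical one, and the cortical arrays were spread far more widely. Mrpl20, counterpart of bacterial L20, read 2.90, 2.45 and 2.46 with vehicle and 2.81, 2.40 and 2.56 with AMI in the hippocampus. In the cortex it read 1.67, 1.56 and 1.27 with vehicle and 1.41, 1.70 and 1.37 with AMI. The groups were separate by tissue and mixed by treatment, and the difference was 1.10 (SE 0.11, 2.14-fold). Mrps28 at 0.58 (SE 0.12) and Mrpl43 at 0.54 (SE 0.08) also had no overlap between the tissues. The second detected probe of Mrpl43 gave 0.28, also called, but with overlapping tissues.

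Bacterial S18 has 3 mammalian paralogs, encoded by Mrps18a, Mrps18b and Mrps18c. They differed in how far the tissues stood apart. Mrps18c was 0.77 (SE 0.14) and Mrps18a 0.53 (SE 0.10) higher in the hippocampus, both called, whereas Mrps18b differed by 0.09 (95% interval -0.11 to 0.29). The treatment differences of the 3 genes lay between -0.06 and 0.05 in both tissues. Mrps30 differed by 0.02 (95% interval -0.14 to 0.18) between the tissues and by 0.03 (hippocampus) and 0.05 (cortex) between the treatments.

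Mrpl9, counterpart of bacterial L9, went the other way. It read 1.29, 1.45 and 1.45 with vehicle and 1.39, 1.56 and 1.55 with AMI in the hippocampus. Its cortical values were 1.96, 1.79 and 2.13 with vehicle and 2.16, 2.07 and 2.24 with AMI. Every cortical array lay above every hippocampal one, and the difference was -0.61 (SE 0.07, adjusted p = 3.6e-05). Mrpl35 was the other member called lower in the hippocampus, at -0.22 (SE 0.07, adjusted p = 0.019), with overlapping tissues. Its call was lost with median centring (-0.19) and without cortical vehicle replicate 1 (-0.19). Mrpl48 at -0.24 (SE 0.11), Mrps25 at -0.09 (SE 0.08) and Mrpl51 at -0.05 (SE 0.09) did not pass. Mrps25 passed with quantile normalization (-0.18) and neqc (-0.24), and Mrpl48 with array weights (-0.27) and without hippocampal AMI replicate 2 (-0.32). For Mrpl48 the other 2 probes gave -0.20 and 0.18, the latter called higher, and for Mrps25 they gave 0.49, called higher, and -0.09, so these genes have no single direction on the array. Mrpl3 likewise had 0.15 and -0.13.

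**Figure D4:**
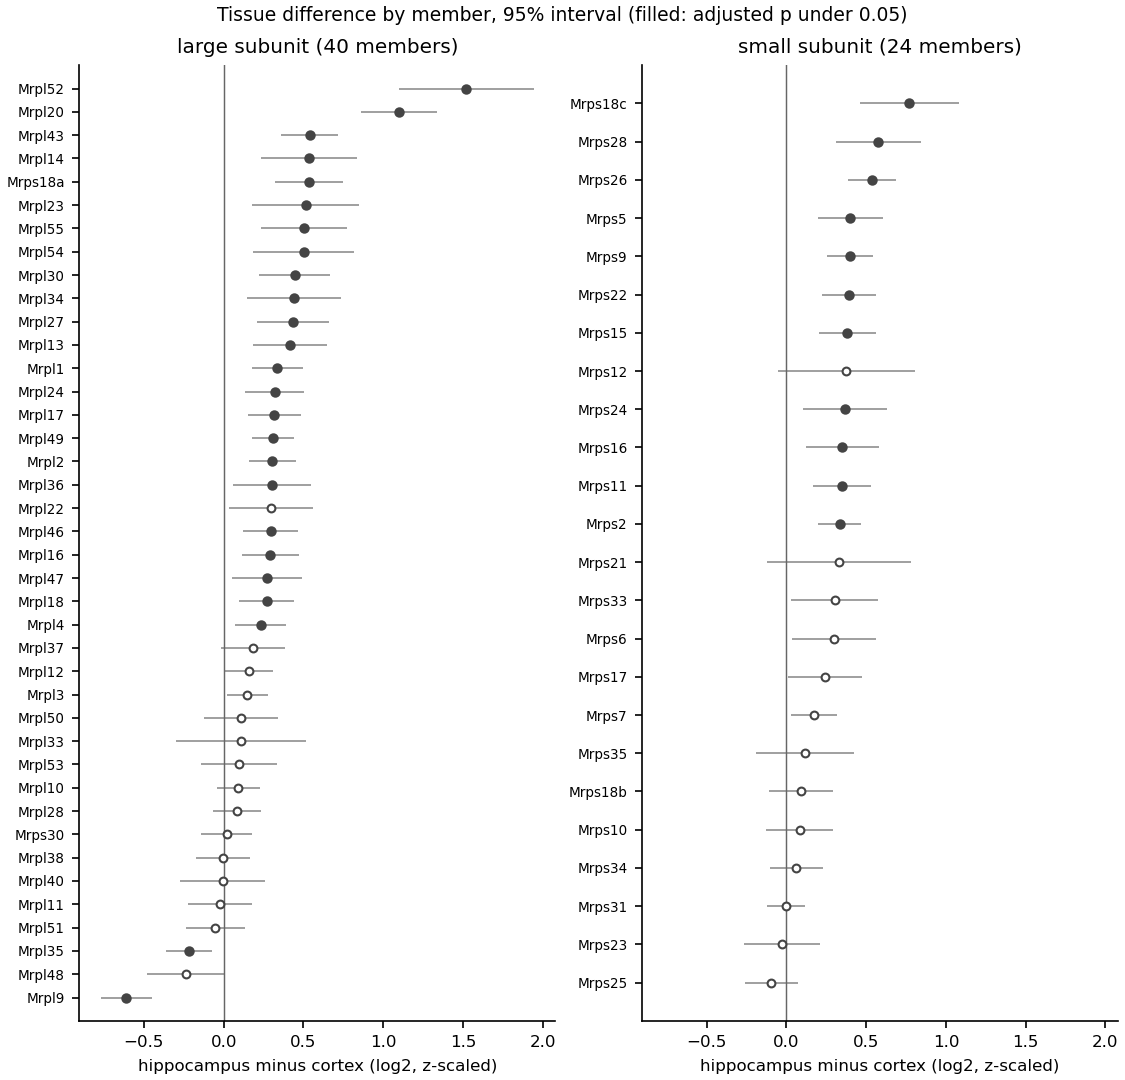
Hippocampus minus cortex difference of 64 members (x axis, log2 of the z-scaled signal) with 95% intervals, large subunit left and small subunit right; filled points have an adjusted p under 0.05. Of the members, 34 are called higher and 2, Mrpl9 and Mrpl35, lower in the hippocampus.

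Both subunits shared the tissue difference. The counts below stand against 23.8% of all genes called higher in the hippocampus and 18.9% called lower. In the large subunit 23 of 40 members were called higher and 2 lower, with a median of 0.29, and in the small subunit 11 of 24 were called higher and 0 lower, with a median of 0.33. Of the members with a bacterial counterpart 27 of 43 were called higher (median 0.32), and of those found only in mitochondria 7 of 21 (median 0.11). Among cytosolic ribosomal protein genes 15 of 56 were called higher and 4 lower (median 0.21), and among oxidative phosphorylation genes 24 of 68 and 6 (median 0.22). The lists of mitochondrial translation held 1 of 8 factors called higher, 9 of 16 synthetases with 1 lower, 4 of 13 assembly factors with 2 lower, 1 of 6 further subunits, and 3 of 10 genes of mitochondrial DNA with 1 lower. Their largest differences were those of Mtrf1l at 0.24, Wars2 at 0.72, Mrm1 at -0.91, Ptcd3 at 0.30 and Supv3l1 at 0.48. For cytosolic ribosomal protein genes, assembly factors and genes of mitochondrial DNA, the share called higher was near that of all genes.

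Most of the few regional markers tested followed the tissue labels. Of 3 hippocampal markers tested 2 were called higher in the hippocampus and 1 lower, led by C1ql2, a gene of dentate granule cells, at 3.22, and of 6 cortical neuron markers 4 were called lower there and 1 higher, led by Tbr1 at -1.87. The cortical samples also carried striatal markers, 5 of 5 called lower in the hippocampus with a median of -1.34. Among cell types, 9 of 10 microglial markers were called higher in the hippocampus (median 0.49) and 3 of 5 general neuronal markers lower (median -0.32). The part of this cell composition in the members' tissue difference was not tested.

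**Figure D5:**
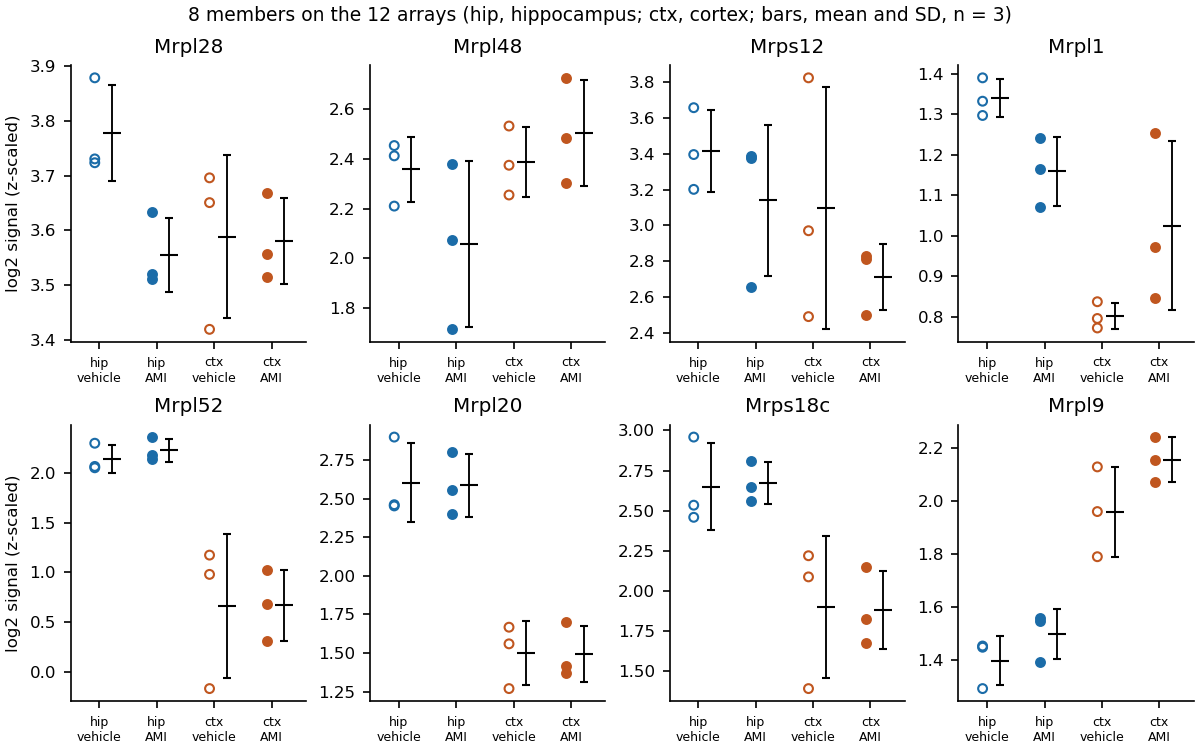
Log2 of the z-scaled signal (y axis) of 8 members on the 12 arrays by group (x axis); open points are vehicle, filled points AMI, and bars show the mean and SD over 3 arrays. The upper row shows Mrpl28, Mrpl48, Mrps12 and Mrpl1, none of whose treatment differences passed the test, and the lower row Mrpl52, Mrpl20, Mrps18c and Mrpl9, whose tissues do not overlap.

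The promoters of the members were searched because these genes are known to be controlled together with other nuclear genes of mitochondria. RefSeq's table for GRCm38.p6 gave a window of 300 bases (250 before and 50 after the start, the first window listed for a gene) for 63 of 72 members. The letters CCGGAAG, the core of sites for ETS factors, occurred on either strand in 23 of 63 members (36.5%), against 9.12% of 27025 promoters and 12.8% of the 13487 whose genes are on the array. GCGCATGC, a core of sites for the nuclear respiratory factor NRF1, occurred in 8 (12.7%), against 2.80% and 3.87%. AAGATGGCG, the core of sites for YY1, occurred in 7 (11.1%), against 1.49% and 2.11%. At least 1 of the 3 was present in 32 members (50.8%) and in 12.5% of all promoters. In oxidative phosphorylation genes the shares were 23.8%, 14.3% and 11.1%, and in cytosolic ribosomal protein genes 41.2%, 0% and 3.92%. The ETS and YY1 letters share AAG and can overlap there, and a match describes the sequence, not binding.

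A window for each motif is printed 5′ to 3′ on the gene's strand, with the motif in capitals on whichever strand it lies.
Mrpl52, GRCm38.p6 chr14:54426659-54426958, plus strand, ETS letters in 2 places: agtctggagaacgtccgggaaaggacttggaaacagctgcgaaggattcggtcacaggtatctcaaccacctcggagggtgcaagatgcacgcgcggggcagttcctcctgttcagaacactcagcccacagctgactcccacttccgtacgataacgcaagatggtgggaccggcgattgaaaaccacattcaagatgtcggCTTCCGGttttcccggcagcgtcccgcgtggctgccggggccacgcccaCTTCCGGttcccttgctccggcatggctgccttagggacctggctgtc
Mrpl9, GRCm38.p6 chr3:94443086-94443385, plus strand, NRF1 letters: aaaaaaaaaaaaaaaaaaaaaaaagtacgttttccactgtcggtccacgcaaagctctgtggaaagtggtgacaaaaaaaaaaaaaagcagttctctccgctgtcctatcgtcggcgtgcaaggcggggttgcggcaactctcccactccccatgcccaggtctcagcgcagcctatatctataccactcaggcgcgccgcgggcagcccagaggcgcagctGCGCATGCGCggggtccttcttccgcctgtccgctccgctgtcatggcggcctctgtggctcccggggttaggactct
Mrps11, GRCm38.p6 chr7:78782881-78783180, plus strand, YY1 letters: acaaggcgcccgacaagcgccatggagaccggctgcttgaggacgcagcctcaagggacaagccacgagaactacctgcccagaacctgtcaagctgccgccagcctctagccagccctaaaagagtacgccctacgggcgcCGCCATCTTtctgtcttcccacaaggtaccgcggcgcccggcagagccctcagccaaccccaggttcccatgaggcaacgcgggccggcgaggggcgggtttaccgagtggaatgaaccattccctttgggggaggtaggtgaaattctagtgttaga
In Mrpl9 the NRF1 letters read on both strands and overlap, which gives a run of 10 capitals. Mrpl52 and Mrpl9 are the members with the largest tissue differences in either direction, and Mrps11 shares its promoter with another member.

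Some members start close to a gene on the opposite strand. Of the 63 members with a window, 23 had such a neighbour within 1000 bases, and for 15 the neighbour was tested in both tissues. The share among all genes was not computed, so the count is not a trait of the members. Mrpl46 and Mrps11 start 42 bases apart, and each was counted as the other's neighbour. Between tissues Mrpl46 differed by 0.29 and Mrps11 by 0.35, and in the hippocampus both had an AMI minus vehicle difference of -0.11, while in the cortex these were 0.02 and 0.10. The second detected probe of Mrps11 gave a tissue difference of 0.11 (adjusted p = 0.344). Mrpl47 and Ndufb5, a subunit gene of respiratory complex I, start 308 bases apart and were both higher in the hippocampus, by 0.27 and 0.92. Other pairs went apart: Mrpl2 was 0.31 higher in the hippocampus, and Klc4, which starts 141 bases away, differed by -0.44 (adjusted p = 0.000756). Mrpl18 was 0.27 higher and its neighbour Tcp1 at 238 bases differed by -0.30 (adjusted p = 0.0041). Mrps12 and Sars2, the mitochondrial seryl-tRNA synthetase gene at 147 bases, differed between the tissues by 0.38 and -0.10, neither of them called. These pairs were chosen after their values were seen and are descriptions.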

How the data were processed

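RNA from the hippocampus and the cortex was hybridized to Illumina MouseRef-8 v2 arrays, 12 in all. The authors deposited a signal intensity for every probe, the mean over its beads on a linear scale with no normalization, and a detection p-value, which the authors deposited beside each signal, set by BeadStudio 3.4 for the hippocampus and GenomeStudio 1.1.1 for the cortex. No column was left out. Following the study's methods, each array's log2 signals were z-normalized over all of its probes, and the z values were multiplied by the average SD of the 12 arrays to give log2 units again. Signals of both tissues were not background-corrected, so folds of dim probes are compressed.

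Probes detected (p of at most 0.05) on 3 or more arrays of a tissue (of each tissue for comparisons of tissues) were tested with limma 3.58.1 in R 4.3.3. Each tissue had its own fit of 6 arrays for AMI against vehicle, and all 12 arrays entered the fit for the tissues and the interaction. P-values were adjusted by Benjamini-Hochberg over 13163, 12944 and 12430 probes. A gene was read by its brightest probe. In simulated data with the same design, 84 of 100 probes changed by a log2 difference of 1 were recovered in the hippocampus, 89 in the cortex, 78 for the interaction and 97 for the tissues. Each probe had independent noise with the same SD in both tissues, and 100 further probes were changed by 2. Shifts shared by the probes of an array were not simulated, so these shares do not measure the power of the real comparisons.

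Same-numbered hippocampal AMI and vehicle arrays deviated together (correlations of 0.61, 0.30 and 0.29 over probes, a pairing taken from the data). Differently numbered ones lay between -0.47 and 0.28, the highest for AMI 3 with vehicle 2, so only replicate 1 stood out as a pair. Cortical arrays of the same number did not all deviate together (-0.06, 0.33 and 0.33), and those of different numbers reached 0.27. The members and lists were chosen with earlier results of these data known. Named genes were the 6 members with the largest difference per direction and treatment comparison, the 4 with the smallest interaction p, the 5 per direction with the largest tissue difference, the 6 brightest and 6 dimmest, the S18 paralogs, Mrpl12, Mrps12, Mrpl28, Mrps30 and Mrps36, and members whose detected probes differed in sign by over 0.2. Alternatives were other scalings, filters, variance models, array weights, the replicate block, the methods' t-test, the mean of all detected probes and leaving out each array. Python 3.11.15 with numpy 2.4.6, pandas 2.3.3 and matplotlib 3.10.9 made the tables and plots.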

Additional observations from a re-analysis of the deposited data

Results flagged for a closer look

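In 2 members every hippocampal AMI array lay below and every cortical AMI array above the vehicle arrays of its tissue. They were picked after the values were seen, and the share of all genes with this pattern was not computed. With median centring 0 members lay apart in the hippocampus, so the pattern depended on the scaling. For Mrpl1 the hippocampal minus cortical AMI difference was -0.40 (SE 0.15), with an adjusted limma p of 0.9999, and leaving out each array in turn gave between -0.49 and -0.29. For Mrps31 it was -0.21 (SE 0.11), with the same adjusted p and a range of -0.24 to -0.19. The other detected probes of Mrps31 gave -0.07 and 0.02, and the other probes of Mrpl1 were not detected.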

How the results depend on the processing

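No alternative gave a member an adjusted p under 0.05 in either treatment comparison or the interaction. The other counts and medians moved as follows, and the cause was not tested. In the hippocampus the members at an unadjusted p under 0.05 numbered 3 with quantile normalization (all genes 4.80%), 10 with array weights (all genes 10.4%), 7 with the methods' t-test (all genes 3.75%) and 5 with the replicate block (8.61%). They numbered 0 with median centring, neqc background correction, the stricter detection filter or trended robust variances. Leaving out single arrays gave 0 to 3, against 1.46% to 7.42% of all genes, with a median of -0.07 to -0.02. Median centring turned the median to 0.041. In the cortex the members at an unadjusted p under 0.05 numbered 3 with no detection filter (all genes 5.49%), 7 with array weights (all genes 20.8%), 4 with the methods' t-test (5.82%), 1 with the mean of the detected probes (5.76%) and 1 with the replicate block (7.52%), where same-numbered arrays did not all deviate together. Single arrays left out gave 0 to 9, against 2.66% to 13.8% of all genes. The median was then -0.084 to 0.126 (-0.0085 without AMI replicate 2), and array weights gave a median of -0.068. The interaction count was 0 with median centring, 1 with neqc (all genes 4.85%), 4 with no filter (3.30%), 8 with array weights (19.5%) and 4 with the replicate block (7.46%), and 1 to 4 with single arrays left out; its median was 0.010 with array weights and -0.162 to 0.042 with arrays left out. Between tissues the median was 0.57 and the members' mean level difference 0.59 (0.28 with z-scaling) under median centring. The count of lower members was 1 under median centring (all genes 4.48%) and 1 under the stricter filter (20.8%). Single arrays left out gave 29 to 39 higher members, against 20.5% to 25.0% of all genes, and 1 to 3 lower members, against 16.3% to 18.2%. The replicate block changed no other count by over 1.5 times. Single genes changed sign as follows, where median centring also moved the median of all genes, to 0.05 in the cortex and 0.23 between tissues, above each value given with it: Mrps35 in the hippocampus (-0.030 to 0.267 with single arrays left out, the lowest without vehicle replicate 1); in the cortex Mrpl12 (0.0037) and Mrps17 (0.034) with median centring, Mrpl37 with the mean of probes (0.037), and with single arrays left out Mrps17 (-0.245 to 0.025, above 0 without vehicle replicate 1 or 2) and Mrps21 (-0.581 to 0.101, above 0 without AMI replicate 3 or vehicle replicate 1 or 2); the Mrps26 interaction with array weights (0.0013); and between tissues Mrpl48 (0.12), Mrpl51 (0.0055) and Mrps25 (0.060) with median centring, Mrps25 with the mean of probes (0.10), and Mrpl51 with array weights (0.024) or with single arrays left out (-0.098 to 0.014, above 0 without hippocampal replicate 1 of AMI or of vehicle). Between tissues Mrpl3 passed with median centring (0.50) and array weights (0.15). Direction and side of the threshold were kept by 419 other values of single genes, and by 362 with an array left out. The count of members lowest on cortical vehicle replicate 3 was recomputed under other scalings after seeing the data. It was 51 of 64 with quantile normalization or neqc (all genes 23.0%) and 58 with median centring (all genes 32.8%). The number of arrays limits the precision, and 7 members were too dim to test.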
